A study of Mus musculus with 24 samples.

Results

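The replication fork machinery was described here by the mRNA levels of 38 genes, out of 49315 genes listed in the count tables. The 38 were taken by symbol from a list of fork proteins, grouped by role. The rule uses no measured value, but the list was drawn up with earlier results of these data known. They were followed in primary astrocytes from the brain cortex of wild type C57BL/6J mouse embryos, grown in culture and exposed to X-rays. Mock-irradiated cells (0 Gy) were compared with cells that received 0.1 Gy or 2 Gy, harvested 6 h or 24 h after exposure, which gave 6 groups of 4 libraries that the labels number n1 to n4 and describe as biological repeats. The cortices of all embryos of a litter were pooled for a culture and cells of the first passage were used, so that a library stands for a mixed culture and not for a single animal. No group carried a transgene or deletion. The question addressed was how the messages for the proteins that copy DNA behaved over dose and time in these cells.

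DNA replication starts when the kinases and loading factors that fire origins bring Cdc45 and the GINS complex to the MCM rings already placed on DNA. The resulting helicase opens the duplex, RPA coats the single strands, polymerase alpha with primase lays down primers, and polymerase epsilon and polymerase delta extend the leading and the lagging strand. RFC loads the ring-shaped clamp PCNA, which holds the polymerases on DNA and serves as a docking site for Fen1 and Lig1, which finish Okazaki fragments, for the histone chaperone CAF-1 and for the ubiquitin ligase substrate receptor encoded by *Dtl*. Many of these genes are transcribed mainly when cells enter S phase, through E2F factors, while a few subunits have other duties and are expressed in resting cells as well.

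Library totals ranged from 14742855 to 38194800 counts, with a median of 24829888.5. Levels are given as counts scaled to a common library size (CPM) by TMM scaling over all 24 libraries, in the order n1 to n4, and were compared between genes only per kilobase of exon. All 12 astrocyte markers were above 1 CPM on average in every group, among them *Gfap*, *Aqp4* and *Glul*, with a summed level between 2591 and 3692 CPM. All 14 microglia markers were detected as well, and their sum lay between 296 and 357 CPM in the 6 libraries numbered n2 and between 2033 and 3549 CPM in the other 18. The 14 fibroblast and vessel markers summed to between 3531 and 7845 CPM, most of it from *Acta2*, while 8 of 14 neuron markers and 9 of 12 oligodendrocyte lineage markers passed the filter on low counts at 24 h in the test of 2 Gy. In the mock groups at 6 h and 24 h the microglia sum had a median of 2878 and 2271 CPM, against 2831 and 2478 CPM after 2 Gy. In bulk RNA, a smaller number of dividing cells and less RNA of a gene per cell cannot be told apart.

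At 24 h after 2 Gy, the fork genes were lower as a group, but unevenly. The largest differences were in *Ticrr* and *Cdc7*, which act in origin firing, in the catalytic and second subunit of polymerase epsilon (*Pole*, *Pole2*), in the helicase factor *Cdc45*, in the clamp loader gene *Dscc1*, in *Chaf1b* of CAF-1 and in *Dtl*, with log2 fold changes between -1.12 and -0.88 in the fit with the library number as a block, where all of them but *Dscc1* were called. At the other end, *Pole3*, *Pole4*, *Pold2*, *Rfc2* and *Rpa3* differed by 0.03 or less on the log2 scale. Without the block, the median log2 fold change over the 38 genes was -0.47, against 0.01 over all 15892 genes tested. In that fit 33 of the 38 values were negative (48.7% of all genes tested were). Within the pairs of libraries that share a number, 27 of 38 genes were lower in all 4 pairs (21.9% of all genes tested were), and the levels of the 2 Gy libraries lay entirely below those of the mock libraries for 14 of 38 (2.01% of all genes). No member was entirely above.

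A gene was called when its p, adjusted by the Benjamini-Hochberg method over all genes tested, was under 0.05 in edgeR's quasi-likelihood test. Without regard to the pairs, 0 of 38 members and 0 of 15892 genes (0%) were called, and adjusted p for the members ran from 0.264 to 0.995. At an unadjusted p under 0.05, 16 members were lower (2.17% of all genes were), and the Wald test of DESeq2 called 4 (0.466% of all genes with an adjusted p). With the library number as a block, 22 of 38 members were called, all lower, where 13.2% of all genes were called and 6.69% were called lower. A further correction for GC content and length in the same fit left 13 of 38 called, all lower (1.70% of all genes were called lower). The 9 calls that ended were those of *Dbf4*, *Pola1*, *Prim1*, *Pold3*, *Rfc1*, *Rfc4*, *Rfc5*, *Wdhd1* and *Tipin*. Every count rested on few pairs. Without n2, 0 of 38 were called with the block (0.376% of all genes were called lower), without n1 3 (0.680%), without n4 6 (0.875%) and without n3 28 (16.4%), while the median of the members stayed between -0.55 and -0.42. *Ticrr*, *Pole* and *Dtl* were called in 3 of these 4 fits and no member in all 4. The n2 libraries had the lowest microglia marker level, and their pair had the largest fall of the members (median log2 difference -0.65). The part of either in the lost calls was not tested. In the paragraphs on single genes at 24 h, fold changes, 95% intervals and adjusted p are those of edgeR with the block.

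**Figure D1:**
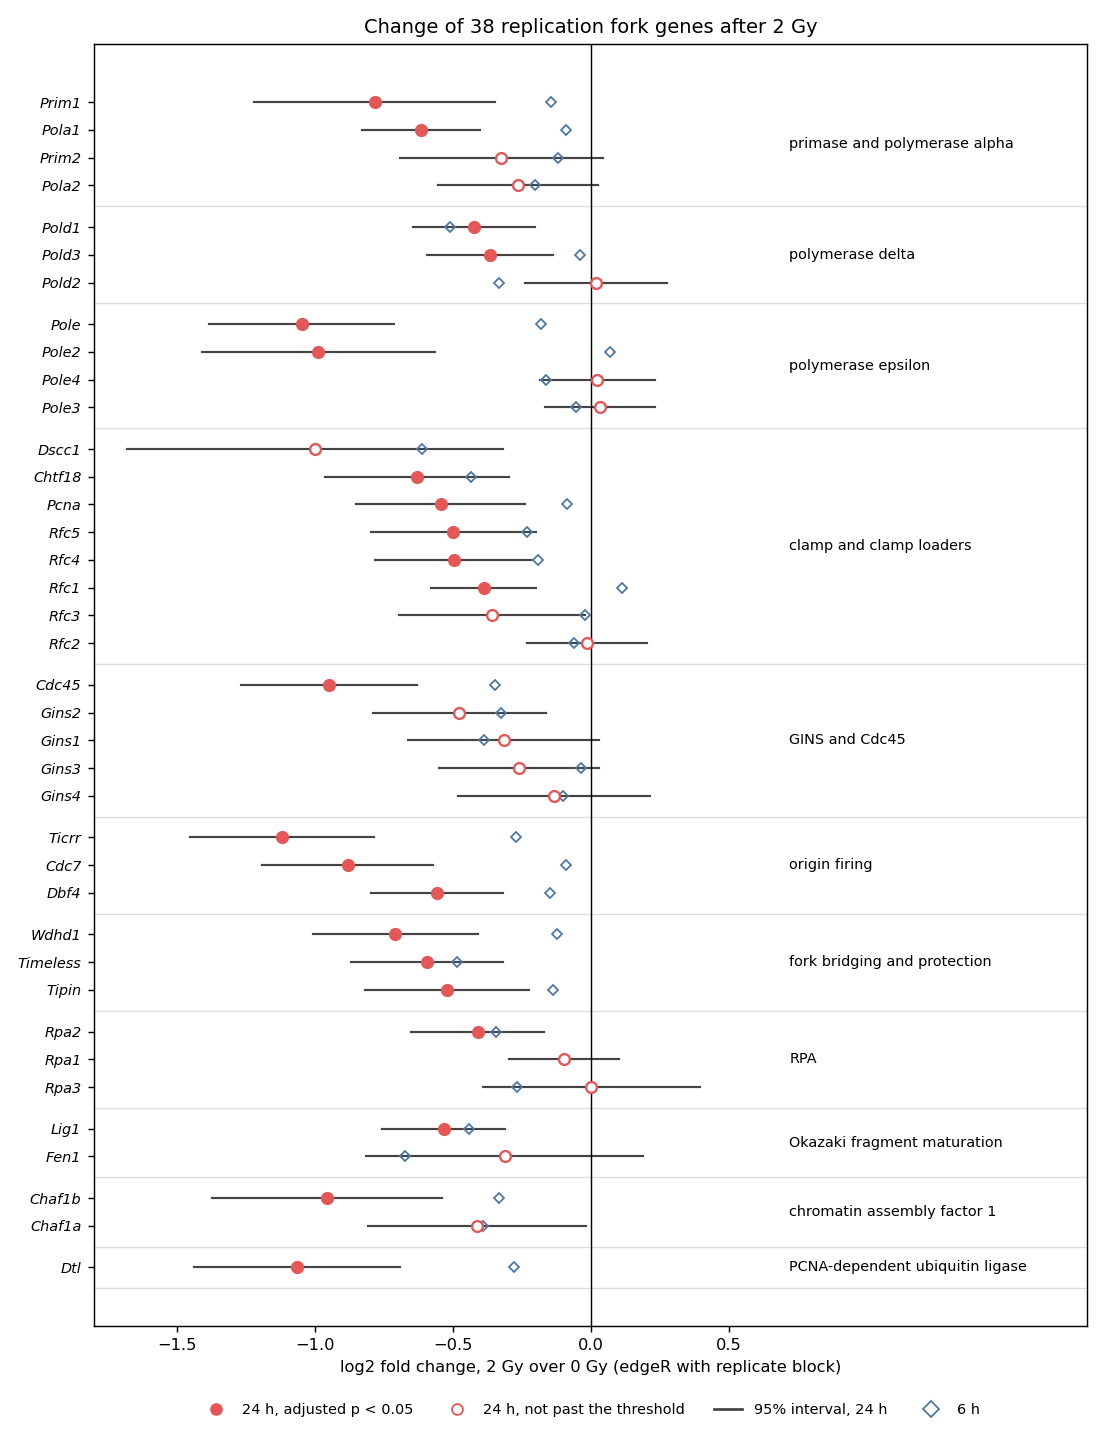
Log2 fold change of the 38 genes, 2 Gy over 0 Gy, from edgeR with the library number as a block, by role. Circles give 24 h with the 95% interval (filled, adjusted p under 0.05), and open diamonds give 6 h. The values at 24 h run from -1.12 (*Ticrr*) to 0.03 (*Pole3*), with 22 filled circles, all to the left of 0.

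All 3 genes of origin firing fell at 24 h. *Ticrr* encodes treslin, which helps to bring Cdc45 onto the MCM rings. Its mock libraries held 5.93, 8.900, 5.37 and 6.12 CPM and its 2 Gy libraries 3.13, 3.48, 2.45 and 2.93 CPM. Every 2 Gy value was below every mock value, and the fold change was -1.12 (-1.45 to -0.79, adjusted p = 0.00546), so that the level dropped by 53.97%. *Cdc7* encodes the kinase that phosphorylates MCM at origins, and *Dbf4* encodes the subunit that activates it. *Cdc7* went from 6.56, 10.4, 6.14 and 6.85 CPM in mock cells to 3.27, 6.11, 2.87 and 4.16 CPM after 2 Gy. The groups did not overlap, although the n2 mock library was far above the other mock libraries (-0.88, -1.19 to -0.57, adjusted p = 0.0105). *Dbf4* was 17.8, 21.3, 15.2 and 16.3 CPM in mock cells and 11.7, 12.6, 11.4 and 11.8 CPM after 2 Gy. Its 2 Gy values were close together and all under the lowest mock value, and it fell (-0.56, -0.80 to -0.32, adjusted p = 0.0178). With the correction for GC content and length, *Dbf4* was at -0.17 and no longer called.

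Among the helicase factors, *Cdc45* had a larger fall than the GINS subunits, which join it at the same step. That difference was not tested. *Cdc45* had 8.73, 10.8, 12.02 and 9.72 CPM in the mock libraries and 3.61, 4.77, 7.07 and 6.09 CPM in the 2 Gy libraries. No 2 Gy value reached the mock range, and the gene fell by 48.2% (-0.95, -1.27 to -0.63, adjusted p = 0.00935). None of the 4 GINS genes was called. *Gins2* came nearest, with 8.02, 8.900, 15.4 and 8.26 CPM against 5.996, 4.73, 11.5 and 7.24 CPM and a log2 fold change of -0.48 (adjusted p = 0.0540). In both groups its n3 library was the highest, which made the groups overlap although each pair moved downwards. *Gins1* (-0.32), *Gins3* (-0.26) and *Gins4* (-0.13) had intervals that included 0, of which that of *Gins4* reached from -0.48 to 0.22. *Gins3* was nevertheless lower in all 4 pairs without overlap, at 5.72, 6.99, 5.696 and 6.32 CPM in mock cells and 4.497, 5.58, 5.18 and 5.31 CPM after 2 Gy. The *Gins4* libraries with number n3 went the other way, from 21.3 CPM in mock cells to 29.3 CPM after 2 Gy, while the other 3 pairs were lower after 2 Gy.

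Primase and polymerase alpha, which start each new strand, split evenly between called and not called genes. *Pola1*, the catalytic subunit of the polymerase, was at 24.6, 21.2, 18.7 and 23.9 CPM in mock cells and at 15.4, 13.8, 11.9 and 16.6 CPM after 2 Gy. *Prim1*, the catalytic subunit of primase, was at 12.6, 18.1, 10.5 and 10.2 CPM in mock cells and at 5.86, 6.83, 9.24 and 7.35 CPM after 2 Gy. For both genes the groups were separate, and both fell (*Pola1* -0.62, adjusted p = 0.0104, *Prim1* -0.78, adjusted p = 0.0333). With the GC and length correction they were at -0.28 and -0.62, and neither was called. The accessory subunits had smaller values that were not called, *Pola2* at -0.26 (-0.55 to 0.03) and *Prim2* at -0.32 (-0.69 to 0.04). *Prim2* was lower in 3 pairs but higher in n3, where it went from 16.02 to 19.4 CPM.

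Polymerase epsilon showed the widest spread within a complex. *Pole*, which carries the polymerase and proofreading activities, had 14.7, 17.99, 15.5 and 15.2 CPM in the mock libraries and 6.404, 6.65, 7.49 and 10.3 CPM in the 2 Gy libraries. Its 4 mock values were close together, all 2 Gy values were below them, and it fell by 51.6% (-1.05, -1.38 to -0.71, adjusted p = 0.00752). *Pole2*, the subunit that ties the polymerase to the helicase, had 5.85, 5.78, 5.15 and 4.704 CPM and 2.59, 2.097, 3.58 and 2.56 CPM in the same order. It fell by a similar amount with no overlap (-0.99, -1.41 to -0.57, adjusted p = 0.0176). The small histone-fold subunits *Pole3* and *Pole4*, of which *Pole3* also belongs to a chromatin remodelling complex, showed no such difference. *Pole3* was at 39.96, 33.7, 49.2 and 34.8 CPM in mock cells and 38.7, 36.2, 46.3 and 38.8 CPM after 2 Gy, and *Pole4* at 52.2, 50.2, 58.7 and 54.5 CPM and 49.1, 46.99, 68.8 and 55.6 CPM. The groups overlapped widely and each gene was lower in only 2 of 4 pairs, with 95% intervals of -0.16 to 0.23 for *Pole3* and -0.18 to 0.23 for *Pole4*.

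Polymerase delta, the lagging strand enzyme, had values nearer to 0. *Pold1*, its catalytic subunit, was at 12.99, 12.5, 23.4 and 18.1 CPM in mock cells and 9.54, 9.41, 17.3 and 13.6 CPM after 2 Gy. The groups overlapped, but the 4 pairwise log2 differences were alike (-0.45, -0.41, -0.43 and -0.42), and the gene fell (-0.42, -0.64 to -0.20, adjusted p = 0.0283). *Pold3*, the subunit that binds PCNA, fell by 0.37 on the log2 scale with its adjusted p near the threshold (0.0453), and was not called with the GC and length correction (-0.32). *Pold2* had 17.04, 18.1, 22.9 and 17.5 CPM in mock cells and 16.6, 16.3, 29.03 and 16.1 CPM after 2 Gy. The n3 library was the highest in both groups and the only one higher after 2 Gy, and the fold change of 0.02 (-0.24 to 0.28) was not called. That value was -0.31 with the GC and length correction.

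*Pcna* was the most abundant member per kilobase, and it is the sliding clamp itself. Its mock libraries were at 99.2, 87.5, 91.9 and 94.8 CPM and its 2 Gy libraries at 59.8, 45.2, 86.9 and 69.99 CPM. The 2 Gy range ended just below the mock range, and the pairwise log2 differences were -0.73, -0.95, -0.08 and -0.44, so that n3 hardly moved while n2 lost the most. The fold change was -0.54 (-0.85 to -0.24, adjusted p = 0.0342). The pseudogene *Pcna-ps2* is counted separately and held 298 counts over the 24 libraries, against 56657 for *Pcna*.

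The clamp loaders differed from each other. RFC consists of the large subunit Rfc1 and 4 small ones shared by all loaders, while Dscc1 and Chtf18 belong to the alternative loader linked to sister chromatid cohesion. *Rfc1* (-0.39), *Rfc4* (-0.50) and *Rfc5* (-0.50) fell, with adjusted p of 0.0252, 0.0352 and 0.0404. None of the 3 was called with the GC and length correction, at -0.25, -0.41 and -0.52. *Rfc4* was the only RFC gene without overlap, at 8.98, 7.83, 8.42 and 8.15 CPM in mock cells and 5.86, 5.76, 6.79 and 5.198 CPM after 2 Gy. *Rfc3* was at -0.36 (-0.69 to -0.02), lower in 3 pairs and not called (adjusted p = 0.134). *Rfc2* had 27.9, 29.4, 42.3 and 31.5 CPM in mock cells and 28.8, 25.03, 47.5 and 30.3 CPM after 2 Gy. These values were higher in n1 and n3 and lower in n2 and n4, for a fold change of -0.01 (-0.23 to 0.20). Of the alternative loader, *Chtf18* fell (-0.63, adjusted p = 0.0291). *Dscc1*, the member with the lowest level per kilobase, went from 1.38, 1.82, 1.98 and 1.57 CPM to 0.954, 0.402, 1.08 and 1.003 CPM without overlap. Its fold change of -0.998 was among the largest but imprecise (-1.68 to -0.32, adjusted p = 0.0583).

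All 3 genes for proteins that bridge or guard the fork fell, of which *Timeless* was also called with the GC and length correction. *Wdhd1* encodes And-1, which links the helicase to polymerase alpha, and its libraries were at 11.7, 17.3, 11.8 and 12.1 CPM in mock cells and 7.22, 8.08, 7.73 and 9.02 CPM after 2 Gy. It was the only gene of the 3 with separate groups, and it had the largest fall (-0.71, adjusted p = 0.0171). *Timeless* and *Tipin* encode a heterodimer that steadies stalled forks. *Timeless* had 6.18, 8.57, 11.5 and 8.83 CPM in mock cells and 4.22, 4.997, 7.96 and 6.09 CPM after 2 Gy, and *Tipin* had 22.8, 25.96, 20.8 and 16.5 CPM and 14.6, 13.7, 18.2 and 12.9 CPM. Both were lower in every pair, with similar fold changes in the fit (-0.59, adjusted p = 0.0209, and -0.52, adjusted p = 0.0350). The pairwise log2 differences were -0.55, -0.78, -0.53 and -0.54 for *Timeless*, and a less even -0.65, -0.92, -0.19 and -0.35 for *Tipin*. With the correction, *Wdhd1* was at -0.53 and *Tipin* at -0.36, neither of them called.

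Among the genes of RPA, the single strand binding trimer, only *Rpa2*, the subunit phosphorylated in the DNA damage response, was called. *Rpa2* had 22.2, 22.97, 30.9 and 19.5 CPM in mock cells and 16.8, 15.7, 21.02 and 17.7 CPM after 2 Gy, with overlap through n3 (-0.41, -0.65 to -0.17, adjusted p = 0.0391). *Rpa1*, the large subunit, was at 146, 191, 182 and 126 CPM in mock cells and 144, 169.6, 153 and 129 CPM after 2 Gy. Its change was -0.10 (-0.30 to 0.10). *Rpa3*, the small subunit, was at 0.00 with a wide interval (-0.39 to 0.39), since n3 went from 9.04 to 14.5 CPM while the other 3 pairs were lower.

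Of the enzymes that finish Okazaki fragments, the ligase *Lig1* fell and the flap nuclease *Fen1* was not called. *Lig1* had 32.7, 28.9, 57.4 and 35.5 CPM in mock cells and 21.6, 16.9, 41.4 and 28.4 CPM after 2 Gy, again with n3 highest in both groups and every pair lower (-0.53, -0.76 to -0.31, adjusted p = 0.0169). *Fen1* was sparsely counted, with 2.84, 2.75, 5.81 and 3.45 CPM and 2.86, 2.72, 2.73 and 3.27 CPM. Only n3 showed a clear difference, and the interval ran from -0.81 to 0.19. The CAF-1 subunits, which deposit new histones behind the fork, split in the same way. *Chaf1b* had 6.56, 8.34, 11.4 and 5.85 CPM in mock cells and 2.73, 3.03, 6.46 and 4.49 CPM after 2 Gy and fell in every pair (-0.95, -1.37 to -0.54, adjusted p = 0.0185). *Chaf1a*, the large subunit, was at 16.6, 20.7, 36.6 and 19.2 CPM and 15.2, 17.3, 16.4 and 18.05 CPM. Its mock library n3 was the highest of all, and the fold change of -0.41 was not called (adjusted p = 0.142).

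*Dtl* encodes Cdt2, which marks Cdt1 and p21 for degradation on PCNA during S phase. Its mock libraries held 17.95, 27.1, 18.7 and 17.98 CPM and its 2 Gy libraries 11.2, 8.75, 7.87 and 10.95 CPM. The n2 mock value was far above the other 3, yet the highest 2 Gy value was still below the lowest mock value. The fold change was -1.07 (-1.44 to -0.69, adjusted p = 0.0104), and it was -0.69 with the GC and length correction.

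**Figure D2:**
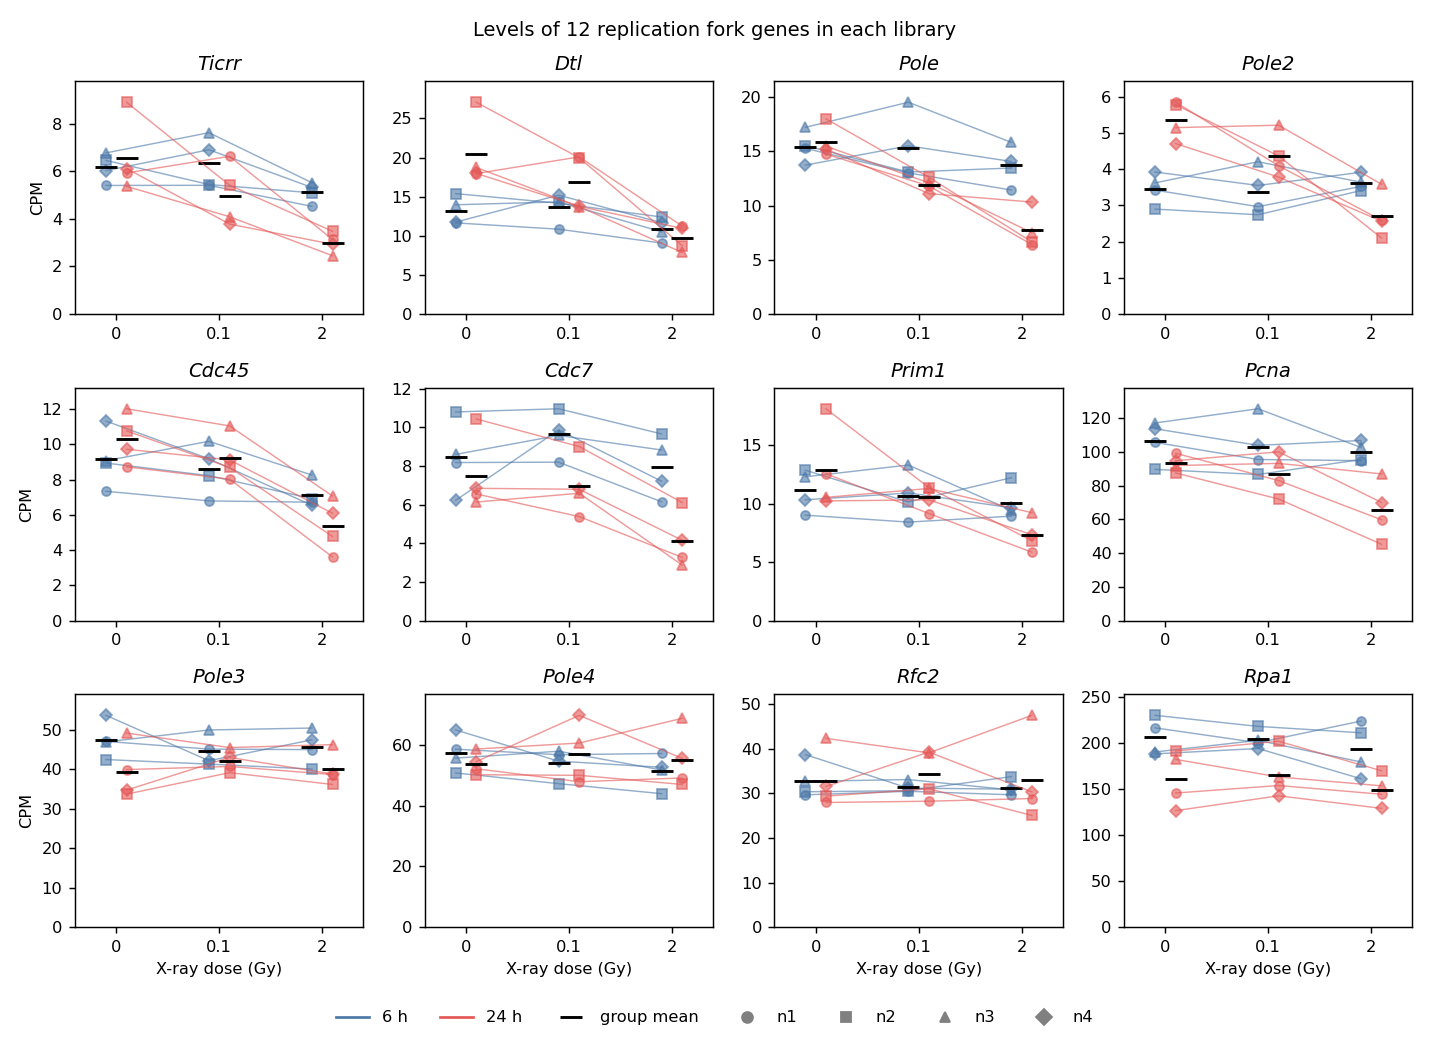
CPM of 12 of the genes against X-ray dose, with libraries of the same number joined by a line (blue 6 h, red 24 h) and the group mean as a black bar. In the upper 8 panels the red lines end at 2 Gy below their start in every pair, while in the panels of *Pole3*, *Pole4*, *Rfc2* and *Rpa1* at 24 h the doses overlap.

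The RefSeq promoter (GRCm38.p6, 250 bases before to 50 after the transcription start) of *Dtl*, which held an E2F word and had the second largest fall, is shown beside that of *Rpa3*, the gene with the smallest change, from 200 bases before to 30 after the start on the gene's strand. Capitals mark the E2F word (TTTGGCGC) and the CCAAT word, which reads ATTGG on the other strand.
Dtl, chr1:191575515-191575744, minus strand: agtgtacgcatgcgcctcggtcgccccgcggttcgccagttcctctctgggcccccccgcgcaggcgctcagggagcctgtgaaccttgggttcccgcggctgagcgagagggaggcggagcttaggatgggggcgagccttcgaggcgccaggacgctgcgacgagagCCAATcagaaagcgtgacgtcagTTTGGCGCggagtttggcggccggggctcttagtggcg
Rpa3, chr6:8259112-8259341, minus strand: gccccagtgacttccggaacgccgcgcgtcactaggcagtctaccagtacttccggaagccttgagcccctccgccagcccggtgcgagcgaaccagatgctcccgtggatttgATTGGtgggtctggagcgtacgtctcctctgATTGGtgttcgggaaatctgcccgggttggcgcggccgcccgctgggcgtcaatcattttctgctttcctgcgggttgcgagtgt

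In *Dtl*, the E2F word began 8 bases before the start and the CCAAT word 31 bases before it, whereas *Rpa3* held the CCAAT word 86 and 55 bases before the start and no E2F word. A promoter was found for 30 of the 38 genes. On either strand, 9 of the 30 (30%) held at least 1 of the E2F words TTTCCCGC, TTTCGCGC, TTTGCCGC and TTTGGCGC, against 2.61% of 27025 genes with a promoter. They were *Dtl*, *Pole2*, *Pola1*, *Lig1*, *Pold1*, *Pold3*, *Rfc3*, *Gins3* and *Pole4*. The CHR words TTTGAA and TTCGAA were in 7 of 30 (23.3%, against 21.7% of all genes) and CCAAT in 15 of 30 (50%, against 41.1%), so that only the E2F words were far more frequent among the members. An E2F word was present in 6 of the 20 genes called with the block at 24 h and in 3 of the 10 not called, and their median log2 fold changes were -0.42 with the word and -0.50 without it. *Pole4*, with the word 34 or 43 bases before its 2 listed starts, was at 0.02, and *Ticrr*, with the largest fall, held 4 CCAAT words and no E2F word.

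**Figure D3:**
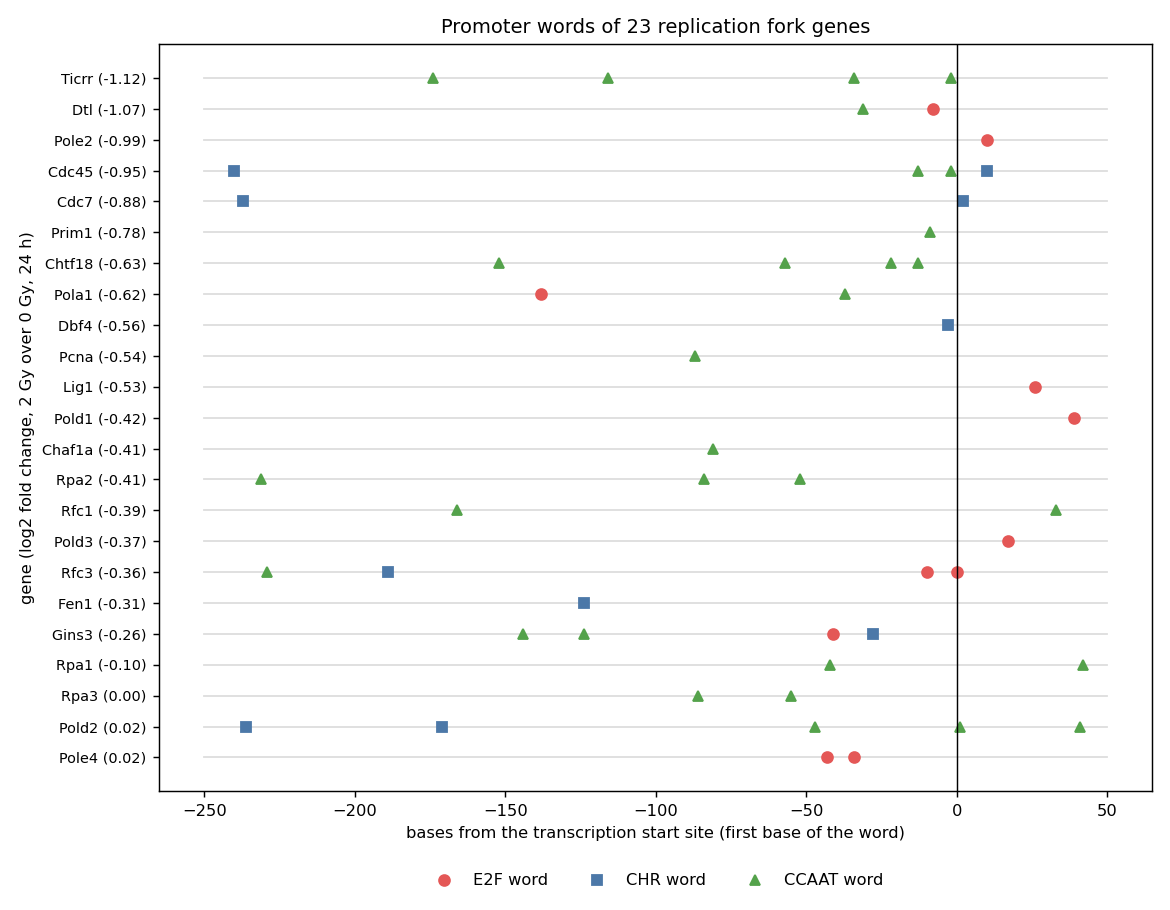
Position of the E2F, CHR and CCAAT words relative to the transcription start in the promoters of the 23 genes that held any, ordered by the log2 fold change at 24 h, which stands in brackets. E2F words appear from *Dtl* (-1.07) to *Pole4* (0.02), within 43 bases of the start except in *Pola1*, where the word lies 138 bases before it.

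Ratios of subunits within a library do not depend on how libraries are scaled. Of 35 ratios between subunits of the same complex, 6 had separate 2 Gy and mock groups at 24 h. The smallest p that an exact two-sided permutation test of 4 against 4 libraries can give is 0.0286, which these 6 reached, and with adjustment over the 35 ratios it was 0.167, so that none passed 0.05. The log2 ratio of *Pole* to *Pole3* was 1.09 lower after 2 Gy, with pairwise differences of -1.16, -1.54, -0.96 and -0.72, and that of *Pole* to *Pole4* was 1.08 lower. The ratios of *Pole2* to *Pole3* (1.04 lower) and to *Pole4* (1.03 lower) behaved alike. The other 2 were *Rfc2* to *Rfc5*, 0.49 higher, and *Pola2* to *Prim1*, 0.52 higher. Changes of *Pole* and *Pole2* relative to the small subunits were thus present in each of the 4 pairs, at a size of 0.43 or more.

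In mock cells at 24 h, the level per kilobase of exon placed *Pcna* first (38.9 ± 2.04 CPM per kilobase, SD, n = 4), then *Rpa1* (28.9 ± 5.46), *Pole4* (21.5 ± 1.45), *Pole3* (19.3 ± 3.47) and *Gins4* (15.2 ± 1.12). The libraries of *Pole3* (16.5 to 24.1) spanned all those of *Pole4* (20.003 to 23.4). *Pole2* (3.17 ± 0.32) and *Pole* (1.42 ± 0.13) were well below their partners *Pole3* and *Pole4*, as *Pold1* (3.45 ± 1.05) was below *Pold2* (9.95 ± 1.42). The lowest levels were those of *Ticrr* (0.66 ± 0.16) and *Dscc1* (0.38 ± 0.06). Across the 38 genes, Spearman's rho between this level (log2 of CPM per kilobase) and the log2 fold change at 24 h was 0.64. For the level not divided by exon length (log2 of CPM) it was 0.37. Between the GC content of each gene's longest transcript and the fold change it was 0.10. These values describe 38 genes measured in the same libraries, and the level and the fold change share the mock libraries.

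At 6 h after 2 Gy the values were closer to mock levels. Their median, on the log2 scale, was -0.18 with 36 of 38 values negative, 23 of 38 genes were lower in all 4 pairs (8.55% of all genes were) and 9 had 2 Gy levels entirely below the mock levels (0.707% of all genes). No gene was called by edgeR without the block (0 of 15994, 0%) or with it (0%), DESeq2 called 0 members (0.00333% of all genes), and 10 members were lower at an unadjusted p under 0.05 (0.725% of all genes). The 9 genes without overlap were *Lig1*, *Pold1*, *Timeless*, *Chtf18*, *Chaf1a*, *Chaf1b*, *Rpa2*, *Gins2* and *Dscc1*. *Lig1* had the smallest p, with 49.1, 43.6, 52.2 and 59.2 CPM in mock cells and 42.2, 31.9, 38.9 and 36.9 CPM after 2 Gy, a log2 fold change of -0.44 ± 0.13 (SE) and an adjusted p of 1.00. *Pold1* was at 21.3, 19.2, 18.3 and 26.9 CPM in mock cells and 16.8, 12.4, 16.8 and 13.8 CPM after 2 Gy (-0.52 ± 0.17). In both genes n4 was highest in mock cells and showed the largest difference. *Timeless* was at 9.17, 7.57, 6.56 and 9.26 CPM and 5.74, 6.43, 5.56 and 5.26 CPM (-0.50 ± 0.17), and *Chaf1a* at 19.04, 21.4, 19.97 and 20.97 CPM and 16.5, 14.3, 17.5 and 13.9 CPM (-0.39 ± 0.12). *Dscc1* had the largest difference of the 9 (-0.63 ± 0.28) at levels of at most 1.81 CPM. Across the 38 genes, Spearman's rho between the log2 fold changes at 6 h and 24 h was 0.20.

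**Figure D4:**
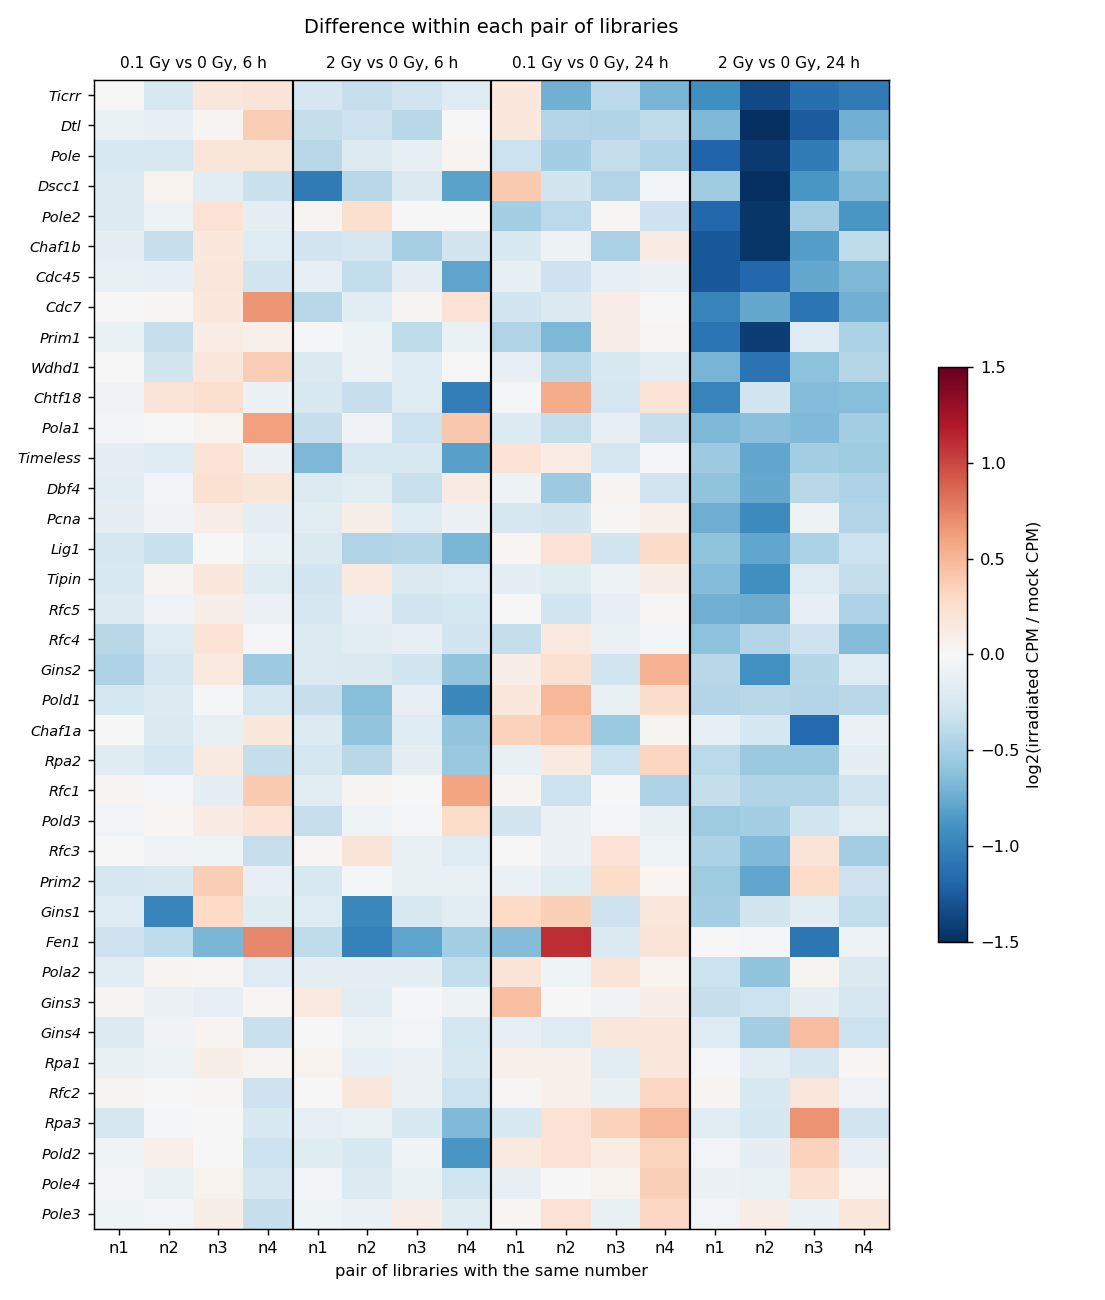
Log2 ratio of irradiated to mock CPM in each pair of libraries of the same number (columns) for the 38 genes (rows, ordered by the change at 24 h after 2 Gy), with colours saturating at 1.5 in either direction. The block for 2 Gy at 24 h is blue in 36, 37, 30 and 35 of 38 genes in n1 to n4, while the 0.1 Gy blocks are mixed.

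After 0.1 Gy the fork genes were close to mock levels. The median of their log2 fold changes at 24 h was -0.02, with 21 of 38 values negative, and no gene was called without the block (0 of 16183 genes, 0%). At an unadjusted p under 0.05 there was 1 member (1.49% of all genes), and DESeq2 called 0 (0%). That gene was *Pole*, the only member with separate groups (0.544% of all genes were lower without overlap) and the only 1 of 38 called with the block, where 6.84% of all genes were called. *Pole* had 14.7, 17.99, 15.5 and 15.2 CPM in mock cells and 11.8, 12.6, 12.1 and 11.1 CPM after 0.1 Gy, a difference of -0.42 (-0.65 to -0.19, adjusted p = 0.0367). The call ended with the GC and length correction (-0.31, adjusted p = 0.0848). With the block, no member was called without n2 (21 of 16155 genes were) or without n4 (16 of 16212 genes). Without n1 the count was 1 member (7.18% of all genes), and without n3 it was 2 (23.2%). The 0.1 Gy values of *Pole* lay between the mock values and the 2 Gy values (6.404, 6.65, 7.49 and 10.3 CPM) in every pair. *Pole2* (-0.31 ± 0.19) and *Pola1* (-0.27 ± 0.15) came next by p and were not called. At 6 h after 0.1 Gy, the median was -0.06 and 29 of 38 values were negative. No gene was called without the block (0 of 16020, 0%), with it (0%) or by DESeq2 (0%), and 0 of 38 had an unadjusted p under 0.05 (0.150% of all genes). In n3, 8 of the 38 were lower after 0.1 Gy at 6 h, against 31, 30 and 24 of 38 in n1, n2 and n4. The smallest p belonged to *Gins2* (-0.26 ± 0.16), *Pold1* (-0.20 ± 0.16) and *Rpa2* (-0.17 ± 0.14).

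Set against 0.1 Gy instead of mock cells, 2 Gy at 24 h gave negative values for 38 of 38 genes, with a median of -0.41. The 2 Gy libraries are the same as in the comparison with mock cells. In all 4 pairs 28 genes were lower (7.56% of all genes), 10 were lower without overlap (1.06%) and 18 were lower at an unadjusted p under 0.05 (1.14%). None of the 16002 genes was called without the block (0%) or with it (0%), and DESeq2 called 0 members without the block (0.220% of all genes) and 6 with it (0.680%). *Cdc45* had 8.03, 8.69, 11.05 and 9.12 CPM after 0.1 Gy and 3.61, 4.77, 7.07 and 6.09 CPM after 2 Gy (-0.76 ± 0.23). *Dtl* had 20.1, 19.97, 13.7 and 13.8 CPM after 0.1 Gy (-0.79 ± 0.22), above the 2 Gy range in every library. The other genes without overlap were *Dscc1* (-0.86), *Ticrr* (-0.71), *Pole2* (-0.68), *Pole* (-0.61), *Chaf1a* (-0.47), *Wdhd1* (-0.47), *Rfc4* (-0.40) and *Dbf4* (-0.33). At 6 h the same comparison had a median of -0.16 with 33 negative values, 0 of 16278 genes called (0%), 0 members among the 9 genes called with the block (0.0553%), and 4 members at an unadjusted p under 0.05 (0.743%). The 4 without overlap, all lower (0.448% of all genes), were *Chtf18* (-0.51 ± 0.16), *Timeless* (-0.44 ± 0.15), *Chaf1a* (-0.36 ± 0.13) and *Dscc1* (-0.46 ± 0.25). DESeq2 called 0 of the 38 (0%).

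Mock cultures harvested at 24 h and at 6 h were compared to see how the genes moved without irradiation. The median over the 38 genes was 0.07 on the log2 scale, 0 of 38 members were called where 6.70% of 15887 genes were, and 9 members had an unadjusted p under 0.05, a share near the 24.7% of all genes. DESeq2 called 5 members (11.1% of all genes), and edgeR with the block called 1 (15.3% of all genes), although across times the numbers related the libraries of n1, n2 and n4 more closely than those of n3. Levels at 24 h were entirely higher for 5 genes (7.82% of all genes) and entirely lower for 1 (7.44%). *Pold2* was the lower one, with 29.3, 25.3, 24.5 and 36.8 CPM at 6 h and 17.04, 18.1, 22.9 and 17.5 CPM at 24 h (-0.63 ± 0.18, adjusted p = 0.0645). The 5 higher genes were *Dtl* (0.62 ± 0.19), *Pole2* (0.62 ± 0.20), *Wdhd1* (0.59 ± 0.19), *Rfc4* (0.49 ± 0.17) and *Pold3* (0.43 ± 0.15). *Rfc1* (0.48 ± 0.15), with overlapping groups, was among the 3 of smallest p. For *Dtl*, mock cells held 13.2 ± 1.81 CPM at 6 h and 20.4 ± 4.44 CPM at 24 h, and irradiated cells 10.9 ± 1.45 and 9.703 ± 1.65 CPM (mean ± SD, n = 4). For *Pole2* the same means were 3.46 ± 0.431, 5.37 ± 0.544, 3.62 ± 0.216 and 2.71 ± 0.625 CPM. In both genes the 24 h mock group was the highest of the 4.

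Whether the response to 2 Gy differed between 24 h and 6 h was tested as the interaction of dose and time. Without the block no gene was called (0 of 16866, 0%), 8 members had an unadjusted p under 0.05 (4.90% of all genes) and DESeq2 called 0 (0.0478%). With the block 5 of 38 members were called, all with a lower value at 24 h, where 6.78% of all genes were called and 3.23% were called lower. They were *Pole2* (-1.05, -1.54 to -0.56, adjusted p = 0.0375), *Pole* (-0.86, adjusted p = 0.0382), *Ticrr* (-0.84, adjusted p = 0.0356), *Cdc7* (-0.78, adjusted p = 0.0404) and *Dtl* (-0.78, adjusted p = 0.0446). With the GC and length correction 2 of them, *Ticrr* and *Pole2*, were called (2.39% of all genes were). At 6 h *Pole2* had 3.42, 2.897, 3.62 and 3.92 CPM in mock cells and 3.52, 3.41, 3.64 and 3.91 CPM after 2 Gy, groups that overlapped fully. Leaving out n1 or n2 in this fit ended all 5 calls (0% of all genes were called lower), leaving out n4 gave 1 (0.407%), and leaving out n3 gave 12 (11.3%).

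Neighbouring steps of the cell cycle, taken from lists of fixed genes, were lower at 24 h after 2 Gy as well. With the block, 13 of 16 origin licensing genes, 5 of 10 deoxynucleotide supply genes and 23 of 24 mitosis genes were called lower (6.69% of all genes were) and none of them higher, with medians of -0.60, -0.61 and -1.02 on the log2 scale without the block. Of 29 other PCNA and fork partners, 14 were called lower and 2 higher, with a median of -0.37. The examples with the smallest p among these partners were *Pclaf*, a PCNA-binding factor (31.7 ± 4.79 CPM in mock cells and 12.2 ± 1.73 CPM after 2 Gy, -1.37, adjusted p = 0.00147), *Clspn*, which encodes the checkpoint mediator claspin (-1.22), and *Uhrf1*, which helps to copy DNA methylation (-0.93). The fork genes thus had a median nearest to that of their other partners and a smaller share called than licensing or mitosis genes, a difference that was not tested. At 6 h, none of these lists had a gene called. The calls among cell type markers with the block at 24 h are given beside the 13.2% of all genes called in that fit. Of the astrocyte markers, 0 of 12 were called lower and 2 higher, with a median of 0.07. *Gfap* was 1 of the 2 (0.36, adjusted p = 0.0426), and its adjusted p without the block was 0.940. Of the 14 microglia markers, 1 was called lower (*P2ry12*, -0.52) and 2 higher (*Trem2*, 0.50, and *C1qa*, 0.48), with a median of 0.13. Of the 9 oligodendrocyte lineage markers tested, 1 was called higher (*Cnp*, 0.49), with a median of 0.09. None of the 8 neuron markers (median 0.17) or 9 fibroblast and vessel markers (median -0.06) tested was called. The part of the called markers in the lower fork gene levels was not tested.

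For 9 members the gene overlaps the end or body of an expressed gene on the opposite strand, and the sources used here do not say whether counting used the strand. The neighbours differed by -0.12 to 0.53 on the log2 scale at 24 h after 2 Gy, the highest being *Kif7*, which shares 51 bases with *Ticrr* and was called higher (adjusted p = 0.0267). *Eif4a2* beside *Rfc4* held 191119 counts over all libraries, against 3910 for *Rfc4*, over 194 shared bases.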

How the data were processed

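The authors deposited raw counts per gene for 24 libraries (49315 genes, mm10). Per the labels and the study's methods, RNA was poly(A)-selected and sequenced in paired-end mode, and all samples were isolated on the same day. Aligner, counting tool and use of strand are not given in the sources used here. The deposited counts were used unchanged.

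Genes were filtered with filterByExpr, scaled by TMM and tested with the quasi-likelihood test of edgeR 4.0.16 (R 4.3.3), with Benjamini-Hochberg adjustment over all genes tested in each of 8 comparisons. The chosen test had no block, since the methods name none. A fit with the library number as a block was run beside it. Deviations from group means correlated between libraries of the same number in all 24 dose pairs (r between 0.514 and 0.912), so the numbers pair libraries within a time. Between 24 h and 6 h mock cells r was 0.0887 for n3 and up to 0.800 for the others, with the own number best in 3 of 4, so the numbers were not taken to pair all libraries across times. Nothing in the labels says whether repeats were separate litters, so p-values measure the spread between these libraries. Libraries of a group differed by more than counting noise in every pair, so none was counted as a duplicate. Depth was 14742855 to 38194800 counts.

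Other alternatives were DESeq2 1.42.0, other scalings and filters, a minimum fold, all 24 libraries in 1 fit, a GC and length correction with the block, and leaving libraries out. All 38 members could be named for 2 Gy against mock cells at 24 h. Elsewhere a member was named where it was called, with or without the block, where its groups did not overlap, or where it was among the 3 of smallest p. Examples from other lists were the 3 of smallest p. The members and lists were chosen with earlier results of these data known. The edgeR test, with and without the block, was run on simulated counts for 2 Gy against mock cells at 24 h and at 6 h. The other tests were not run on simulated counts. Promoter sequences were those of RefSeq (GRCm38.p6) and were searched for fixed words on both strands, with 30 of 38 members matched by symbol.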

Additional observations from a re-analysis of the deposited data

Results flagged for a closer look

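Among 228 sets of 4 libraries, 1 for each gene and group, 11 held a library far from the other 3 by Dixon's criterion, which chance meets in about 1 of 20 sets. In mock cells at 24 h, n2 was high for *Dtl* (27.1 CPM), *Cdc7* (10.4 CPM) and *Wdhd1* (17.3 CPM) and low for *Pold3* (24.5 CPM), while n3 was high for *Gins2* (15.4 CPM) and *Chtf18* (11.1 CPM). After 2 Gy at 24 h, n3 was high for *Pold2* (29.0 CPM). At 6 h, n4 was high for *Rpa2* in mock cells (28.3 CPM) and for *Chaf1a* (23.5 CPM) and *Dscc1* (1.44 CPM) after 0.1 Gy, and n3 was high for *Gins2* after 0.1 Gy (16.9 CPM).

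For 5 genes the response to 2 Gy at 24 h and at 6 h was called different in edgeR's test of the interaction with the library number as a block. The log2 differences between the responses were -1.05 for *Pole2*, -0.86 for *Pole*, -0.84 for *Ticrr*, -0.78 for *Cdc7* and -0.78 for *Dtl*, and 0 members were called without the block. With the block 6.78% of all genes were called and 3.23% were called lower, and leaving out n1 or n2 ended all 5 calls.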

How the results depend on the processing

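The direction of the members' median at 24 h after 2 Gy was the same under every alternative run, but the count of members called (0 without the block) was not. Counts are given with the share of all genes called in the same fit. The replicate block, which pairs libraries of the same number, gave 22 (13.2%), DESeq2 with the block 22 (17.0%), the block with library size alone (an alternative added after seeing the data) 20 (13.8%), the block with the GC and length correction 13 (3.56%), all 24 libraries in 1 fit 6 (0.622%) and DESeq2 4 (0.466%). With the block and 1 number left out it ran from 0 to 28 (33.1%, without n3). At 6 h after 2 Gy it was 1 with the block and the GC and length correction (0.721%), which moved the median to -0.22, and 0 to 1 with a number left out (0.799%, without n4). Leaving out single libraries there gave medians between -0.23 and -0.18. For 0.1 Gy at 24 h it was 1 in edgeR with the block (*Pole*, 6.84%), 1 in DESeq2 with the block (14.7%), 1 with the block and the GC correction (*Rpa3*, a different gene, 1.85%) and 0 to 2 with a number left out (23.2%, without n3), and the median was 0.0736 with library size alone. For 2 Gy against 0.1 Gy at 24 h it was 6 in DESeq2 with the block (0.680%), 4 with the block and the GC correction (0.651%) and 0 to 11 with a number left out (161 of 16092 genes, without n3). For mock cells at 24 h against 6 h it was 5 in DESeq2 (11.1%), 4 in DESeq2 with the block (17.8%), 1 with the block (*Dtl*, 15.3%), 1 with the block and library size alone (14.4%), 6 with the block and the GC correction (26.6%), 6 with all libraries (14.3%), 0 to 5 with a single library left out (18.6%, without 0 Gy 24 h replicate 3), and 0 to 15 with the block and a number left out (45.4%, without n3). For the interaction it was 8 in DESeq2 with the block (18.3%), 5 with the block (6.78%), 5 with the block and library size alone (7.41%), 2 with the GC correction (2.39%) and 0 to 12 with a number left out (23.4%, without n3), and with single libraries left out the median ran from -0.39 (without 2 Gy 24 h replicate 3) to -0.148.

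Members near 0 at 24 h after 2 Gy changed sign: *Pold2* (-0.31) and *Pole3* (-0.0219) with the block and the GC correction, *Rfc2* with the block (-0.0132) and in DESeq2 with the block (-0.0171), and *Rpa3* in DESeq2 with the block (-0.00783). *Pola1* after 0.1 Gy at 24 h was at 0.0330 with the block and the GC correction. With single libraries left out, values ran from -0.34 to 0.0590 for *Gins4*, -0.19 to 0.14 for *Pold2*, -0.0431 to 0.14 for *Pole3*, -0.0742 to 0.10 for *Pole4*, -0.21 to 0.14 for *Rfc2* and -0.18 to 0.18 for *Rpa3*. The cause was not tested.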
